A study of Homo sapiens with 26 samples.

Results

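The integrated stress response genes described here were CHAC1, CREBRF, ATF3, ATF4, DDIT3, DDIT4, TRIB3, ASNS, PPP1R15A and VLDLR, 10 of the 20149 protein-coding genes in the annotation. They were followed through ChIP-seq peaks of H3K27ac, the acetylation of histone H3 that marks promoters and enhancers in use, and of H3K4me1, the monomethylation of histone H3 that marks enhancers whether primed or in use. A peak belonged to a gene when its region overlapped the promoter, from 1000 bp upstream to 200 bp downstream of a start site, or lay within 25 kb of a start site. The set was chosen by measured values, since the H3K27ac ranks of CHAC1 and CREBRF at 1 h had differed with the RAD21 line in these same data. The H3K27ac values of CHAC1 and CREBRF in comparisons that involve the 1 h lists or the RAD21 line are therefore given as a description, with no test.

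Peaks came from HCT116, a line of colorectal carcinoma cells that keep functional p53. Parental cells (WT) were given DMSO as the vehicle (0 h) or Nutlin-3a, a compound that blocks the p53 inhibitor HDM2, for either 1 h or 10 h, with both marks profiled at each time. A derivative of HCT116, called the RAD21 line here, was profiled for H3K27ac at 0 h and at 1 h of Nutlin-3a. In this derivative the cohesin subunit RAD21 carries a degron tag. Per the study, the ligand 5-Ph-IAA was given before Nutlin-3a to degrade RAD21. GEO's labels leave this unstated, while the peak names in the lists include KD. The tag and the exposure to the degrader cannot be told apart from each other here, since neither was measured alone. Each of the 8 groups held 2 libraries with a peak list each, 10 for H3K27ac and 6 for H3K4me1. They are labelled as biological replicates, nothing says what was separate between them, and p-values then measure only the spread between these samples, which may be technical.

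In the integrated stress response, kinases that sense amino acid shortage, unfolded protein, viral RNA or lack of haem phosphorylate the translation factor eIF2. General protein synthesis then falls while the mRNA of ATF4 is translated more, and ATF4 protein enters the nucleus. ATF4 pairs with C/EBP-type partners on a composite site, the C/EBP-ATF response element (CARE), in genes for amino acid supply, redox balance and further transcription factors. Several of these genes, among them DDIT4 and ATF3, are also known as p53 targets.

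The promoters were searched for 4 motifs on both strands of GRCh37, in the window used for peaks around the canonical start site. The CARE core TGATGNAA stood in 12.3% of 20136 promoter windows and in 7 of the 10 genes, all except CREBRF, ATF4 and PPP1R15A. The CRE TGACGTCA, the site of CREB and ATF dimers, stood in 3.73% of windows and in PPP1R15A alone among the genes. The CCAAT box CCAAT was found in 74.9% of windows and in 9 of the genes, all but TRIB3. The p53 decamer, the repeated unit of the p53 response element, was found in 23.4% of windows and in CHAC1, DDIT4 and ASNS. A match is a stretch of letters and no evidence of binding. The following windows of 30 bases are shown because the results below turn on these promoters, with the CARE core (for PPP1R15A the CRE) in capitals, each 5′ to 3′ on the strand that carries the motif.
CHAC1: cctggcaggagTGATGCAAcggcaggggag
DDIT3: gggggcggggaTGATGCAAtgtttggcaac
DDIT4: gtcctcggtccTGATGCAAccgtctggatc
TRIB3: cccggtccgggTGATGCAAaccggagctaa
ASNS: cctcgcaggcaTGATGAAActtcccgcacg
VLDLR: gcagttagcgcTGATGCAActatcgttgct
PPP1R15A: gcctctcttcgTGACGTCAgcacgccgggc
The CHAC1 core began 209 bp upstream of the start site (chr15:41245449-41245478, minus strand, in an annotated exon). The DDIT3 core lay 306 bp upstream (chr12:57914585-57914614, plus strand), the DDIT4 core 942 bp upstream (chr10:74032725-74032754, plus strand) and the VLDLR core 438 bp upstream (chr9:2621338-2621367, minus strand), none of them in an exon. TRIB3 held the same 30 letters at 2 places within an annotated exon, 132 and 165 bp downstream of the start site (chr20:361525-361554 and chr20:361558-361587, minus strand). The ASNS core lay 68 bp upstream (chr7:97501770-97501799, minus strand, in an annotated exon), and a further core of ASNS, 886 bp upstream, lay outside its H3K27ac region. The CRE of PPP1R15A lay 58 bp upstream (chr19:49375609-49375638, plus strand, in an annotated exon).

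ATF3 carried 2 cores, 203 and 21 bp upstream of its start site, and CREBRF carried none. The stretches upstream of both are shown because their H3K27ac ranks moved differently. ATF3 is given from 220 bp upstream to the start site (chr1:212781883-212782102, plus strand, CARE cores in capitals). CREBRF is given from 150 bp upstream to the start site (chr5:172483205-172483354, plus strand), with its CCAAT boxes, 93 and 66 bp upstream and read on the minus strand, in capitals.
ATF3: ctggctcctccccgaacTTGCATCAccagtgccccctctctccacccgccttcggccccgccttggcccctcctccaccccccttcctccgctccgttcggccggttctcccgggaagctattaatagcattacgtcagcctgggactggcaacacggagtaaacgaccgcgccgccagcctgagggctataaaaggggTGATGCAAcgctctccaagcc
CREBRF: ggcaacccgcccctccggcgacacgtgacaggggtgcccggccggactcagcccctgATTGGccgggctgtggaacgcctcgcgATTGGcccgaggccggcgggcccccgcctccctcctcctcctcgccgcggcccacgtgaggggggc

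Peak lists hold no read counts, so the depth of each library is unknown and no interval for a signal could be set. Each region was instead placed within its own list, by the −log10 p-value of its strongest peak, as a percentile in which 100.0 is the top of the list. Changes between groups were tested on normal scores of ranks taken over only the regions that every list of a mark held, 18757 for H3K27ac and 60476 for H3K4me1, so a change of 1 equals 1 standard deviation of those regions. Percentiles refer to whole lists, which differ in length, and can therefore move apart from the scores. At the member promoters the measures had opposite signs in 4 of 54 H3K27ac and 3 of 27 H3K4me1 comparisons of groups, and they differed on whether the groups overlapped in 7 and 3. The directions given here are those of the scores. The lists held between 31640 and 49127 H3K27ac peaks and between 84492 and 92943 H3K4me1 peaks. In 3 H3K27ac lists, both WT 0 h lists and replicate 1 of WT 1 h, the peak names lack the word input that the other 7 carry. Peaks over the member promoters had a median width of 1680 bp and a median fold of 9.03 in those 3 lists, against 4558 bp and 49.6 in the 7. The WT comparison of 10 h with 0 h and the comparison of the lines at 0 h set lists of different name forms against each other, so that the form and the group cannot be told apart there. The RAD21 line at 0 h and 1 h has a single form. Only WT at 1 h holds both forms. Where the form enters a fit as a term, its effect therefore rests on those 2 lists alone. In WT at 1 h against 0 h that term returns the value found without WT 1 h replicate 2, so these are not separate checks. The list of replicate 2 of the RAD21 line at 0 h carries replicate numbers 2 and 3 in its peak names. All 6 epithelial marker promoters were covered in every H3K27ac list, and none of 4 blood, 3 fibroblast and 2 hepatocyte marker promoters was covered in any. Of the 2 endothelial markers, CDH5 was covered in no list. PECAM1 was missing from the annotation, so its promoter was not examined.

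H3K27ac covered the promoter in all 10 lists for 9 of the 10 genes, and H3K4me1 regions overlapped a promoter window in all 6 lists for the same 9, the exception being VLDLR for both marks. Across the 10 H3K27ac lists PPP1R15A stood highest, ATF4 next, and CREBRF had the widest range. In comparison, 13188 of the 20149 protein-coding genes had an H3K27ac promoter region called in any of the lists, a looser condition that the same 9 members met. The summit of the strongest peak lay within 613 bp of the start site at each of the 9 promoters except CREBRF.

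**Figure D1:**
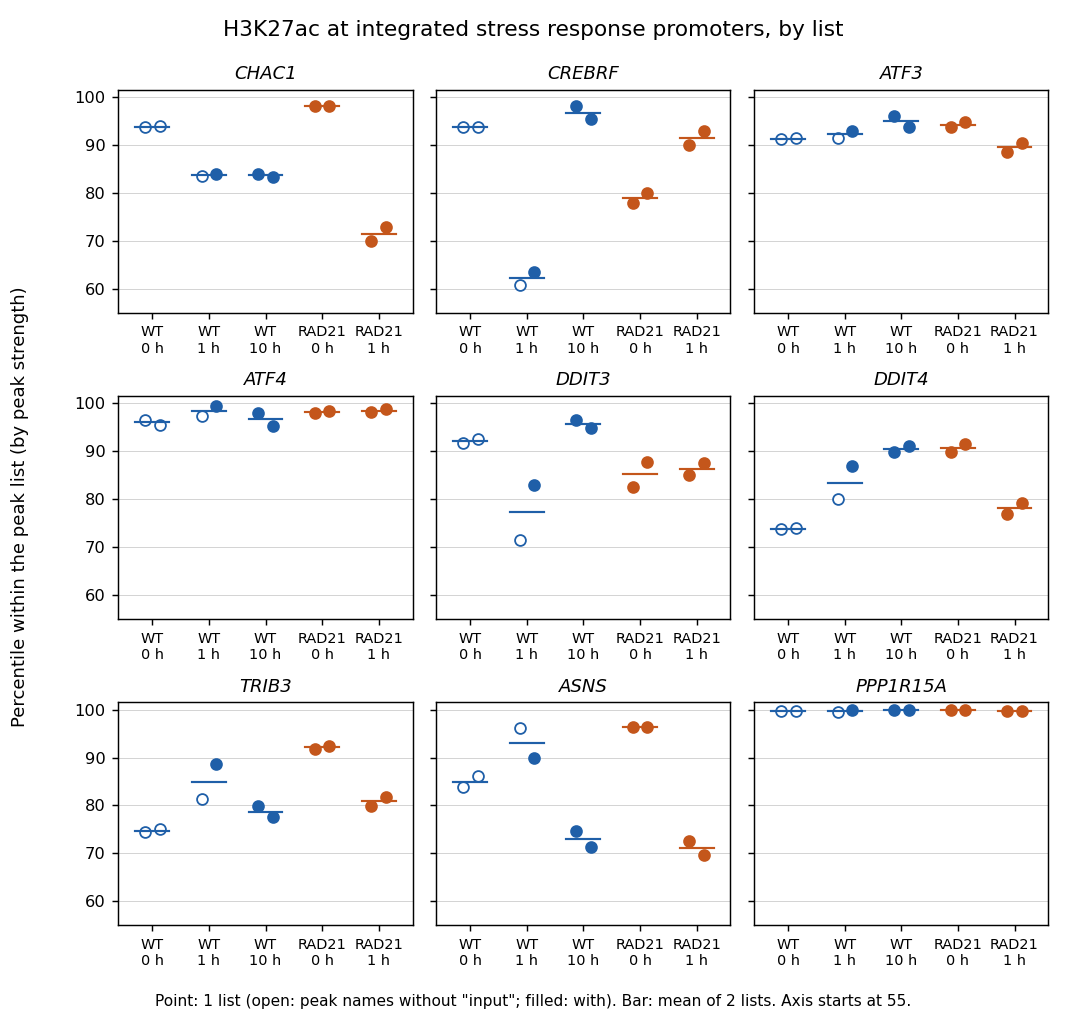
Percentile of the promoter region within each H3K27ac peak list (y axis, by the −log10 p-value of the strongest peak) for the 9 genes with a peak, by group (WT at 3 times, the RAD21 line at 0 h and 1 h). Each point is 1 library, drawn separately for lists with and without input in their peak names. CREBRF stood at 60.9 and 63.5 in WT at 1 h, and CHAC1 at 98.2 at 0 h against 69.9 and 73.0 at 1 h in the RAD21 line.

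Among the transcription factors, CREBRF and DDIT3 stood lower in WT at 1 h than at 0 h and 10 h, while ATF4 and ATF3 stood above the 88 percentile throughout. CREBRF encodes a regulator of the CREB3 family of stress factors. Its promoter region (chr5:172482687-172485405, from 668 bp upstream to 2050 bp downstream) stood at the 93.8 and 93.7 percentiles in WT at 0 h, at 60.9 and 63.5 at 1 h and at 98.1 and 95.4 at 10 h. The RAD21 line had CREBRF at 78.0 and 79.9 at 0 h and at 90.0 and 92.8 at 1 h. The WT 1 h lists were thus the lowest of all and overlapped no other group, and in the RAD21 line the 1 h lists stood above the 0 h lists. As a description, the CREBRF change at 1 h was −1.68 ± 0.15 (SE, n = 2 lists per group) in WT and 0.75 ± 0.15 in the RAD21 line, a difference of 2.43 ± 0.21. Within the lists named without input the WT change was −1.54. The summit of the CREBRF peak lay between 173 and 218 bp downstream of the start site in 8 lists, and 1281 and 1259 bp downstream in the WT 1 h lists. At 10 h against 0 h, which shares the 0 h lists with the choice of genes, CREBRF differed by 0.19 ± 0.15 (limma adjusted p = 0.39).

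DDIT3 encodes CHOP, the factor tied to cell death in prolonged stress. Its region spans 14975 bp and also covers the promoter of MBD6, so the rank is shared with that gene. DDIT3 stood at 91.6 and 92.5 in WT at 0 h, at 71.5 and 83.0 at 1 h and at 96.6 and 94.8 at 10 h. It stood at 82.6 and 87.8 in the RAD21 line at 0 h and at 85.1 and 87.5 at 1 h. WT lists at 1 h were below those at 0 h and at 10 h without overlap, and the 4 RAD21 lists overlapped each other. The WT change at 1 h was −0.85 ± 0.14 (limma adjusted p = 0.00087) and the return from 1 h to 10 h was 1.00 ± 0.14 (adjusted p = 0.00021). The 10 h lists differed from the 0 h lists by 0.15 ± 0.14 (adjusted p = 0.46, and 1.397 with adjusted p = 0.042 when ranked by fold). For the RAD21 line the change at 1 h was 0.07 ± 0.14 (adjusted p = 0.72), and it differed from the WT change by 0.93 ± 0.19 (adjusted p = 0.0043). With peaks ranked by fold in place of the p-value, the WT change at 1 h was −0.064 (adjusted p = 0.94), the return was 1.46 (adjusted p = 0.076) and the difference between the lines was 0.22 (adjusted p = 0.89), so none of these DDIT3 calls held. Over the 10 lists DDIT3 and CREBRF had a Pearson correlation of 0.886, a description over lists that share conditions.

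ATF4, the central factor of the response, and ATF3, a stress-induced factor downstream of it, had narrower ranges. The H3K27ac region of ATF4 spans 18564 bp and also covers the promoter of RPS19BP1, so its rank is shared with that gene. ATF4 stood at 96.6 and 95.5 in WT at 0 h, 97.4 and 99.5 at 1 h and 98.1 and 95.3 at 10 h, and between 98.0 and 98.7 in the 4 lists of the RAD21 line. Its WT percentiles at 10 h overlapped those at 0 h and at 1 h, while its scores at 10 h lay below those at 1 h without overlap. The ATF4 change at 1 h was 0.52 ± 0.19 (adjusted p = 0.060, and 0.83 with adjusted p = 0.00011 without WT 1 h replicate 1), and the 10 h lists were lower than the 1 h lists by 0.59 ± 0.19 (adjusted p = 0.034). The latter call was lost when any of 8 lists was left out, and the change was −0.38 without WT 10 h replicate 2 and −0.28 without WT 1 h replicate 2. ATF3 stood between 91.2 and 92.9 in WT at 0 h and 1 h, and at 96.1 and 93.8 at 10 h, where the scores overlapped those at 0 h (difference 0.11 ± 0.12, adjusted p = 0.54). ATF3 in the RAD21 line went from 93.7 and 94.7 at 0 h to 88.6 and 90.4 at 1 h, a fall without overlap. That change was −0.37 ± 0.12 (adjusted p = 0.034), and the call was lost without any single list of the RAD21 line or of WT at 0 h.

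CHAC1, which degrades glutathione, stood lower after Nutlin-3a than before in both lines. Its promoter region (chr15:41244239-41246727, from 1430 bp upstream to 1058 bp downstream) holds the CARE core and the summits, which lay between 356 and 480 bp upstream in all 10 lists. CHAC1 stood at 93.7 and 93.9 in WT at 0 h, at 83.5 and 84.0 at 1 h and at 84.0 and 83.4 at 10 h. The RAD21 line had CHAC1 at 98.2 in both 0 h lists and at 69.9 and 73.0 at 1 h. No 1 h list overlapped a 0 h list of its line, and the RAD21 line had both the highest and the lowest lists. As a description, the CHAC1 change at 1 h was −0.72 ± 0.11 in WT and −1.91 ± 0.11 in the RAD21 line, a difference of −1.19 ± 0.16. The WT lists at 10 h remained lower than at 0 h by 0.97 ± 0.11 (limma adjusted p = 0.00034). That test compares lists of different name forms and shares the 0 h lists with the choice of genes. Its p-value is thus not independent of that choice. With the name form as a term the difference was −0.80. That term rests on both WT 1 h lists, which the choice of genes also used.

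PPP1R15A encodes GADD34, which brings a phosphatase to eIF2 and closes the response, and its promoter ranked near the top in each list, from 99.6 to 99.98. None of its 7 H3K27ac comparisons passed the adjusted threshold. The change at 1 h was 0.32 ± 0.25 in WT (adjusted p = 0.36) and −0.48 ± 0.25 in the RAD21 line (adjusted p = 0.17), a difference of −0.80 ± 0.35 (adjusted p = 0.12). Without WT 1 h replicate 1, the list named without input, these changes were 0.70, −0.48 and −1.18, and each passed (adjusted p = 0.0046, 0.016 and 0.00054). TRIB3 encodes a pseudokinase that restrains ATF4, CHOP and AKT. TRIB3 stood at 74.5 and 75.1 in WT at 0 h, at 81.3 and 88.6 at 1 h and at 79.9 and 77.6 at 10 h. The 10 h percentiles were above those at 0 h, but the scores of TRIB3 were lower at 10 h (−0.23 ± 0.11, adjusted p = 0.17). TRIB3 stood at 91.8 and 92.5 in the RAD21 line at 0 h and at 80.0 and 81.7 at 1 h. At 1 h it thus rose in WT and fell in the RAD21 line, in both cases without overlap. The TRIB3 change at 1 h was 0.39 ± 0.11 in WT (adjusted p = 0.020) and −0.67 ± 0.11 in the RAD21 line (adjusted p = 0.00090), a difference of −1.07 ± 0.16 (adjusted p = 0.00059). The WT call was lost without either WT 0 h list and without WT 1 h replicate 2, with values from 0.29 to 0.42. With the name form as a term it was 0.29 (adjusted p = 0.058), the same value as without WT 1 h replicate 2.

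The effectors DDIT4 and ASNS fell in the RAD21 line at 1 h, as TRIB3 did, and in WT DDIT4 rose. DDIT4 encodes REDD1, an inhibitor of mTORC1. DDIT4 stood at 73.7 and 74.0 in WT at 0 h, at 80.0 and 87.0 at 1 h and at 89.8 and 91.2 at 10 h, and the 3 times did not overlap. DDIT4 stood at 89.9 and 91.5 in the RAD21 line at 0 h and at 76.9 and 79.3 at 1 h. The WT change of DDIT4 was 0.35 ± 0.12 at 1 h (adjusted p = 0.035) and 0.55 ± 0.12 at 10 h (adjusted p = 0.0076). The call at 1 h was lost without any of 6 single lists (values from 0.28 to 0.37), and that at 10 h without either WT 0 h list or WT 10 h replicate 2 (values from 0.48 to 0.57). Taking the name form as a term gave 0.28 (adjusted p = 0.082) and 0.39 (adjusted p = 0.20). The DDIT4 change at 1 h in the RAD21 line was −0.70 ± 0.12 (adjusted p = 0.00078), which differed from the WT change by −1.06 ± 0.16 (adjusted p = 0.00072).

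ASNS makes asparagine and is a classical ATF4 target. ASNS stood at 83.9 and 86.1 in WT at 0 h, at 96.1 and 89.9 at 1 h and at 74.7 and 71.4 at 10 h. Both 0 h lists of the RAD21 line placed ASNS at 96.4, and the 1 h lists placed it at 72.6 and 69.8. Each of these groups was separate from the others of its line. The ASNS change in WT was 0.48 ± 0.18 at 1 h (adjusted p = 0.054, and 0.83 with adjusted p = 1.6e-05 without WT 1 h replicate 2) and −1.004 ± 0.18 at 10 h (adjusted p = 0.0031). The RAD21 line had a change of −1.59 ± 0.18 at 1 h (adjusted p = 5.4e-05), and the difference from the WT change was −2.07 ± 0.25 (adjusted p = 0.00014). At 1 h ASNS was lower in the RAD21 line than in WT by 1.32 ± 0.18 (adjusted p = 0.0010), although at 0 h it was higher by 0.75 ± 0.18 (adjusted p = 0.0048, 0.69 with adjusted p = 0.050 without WT 0 h replicate 1, and 0.32 with adjusted p = 0.62 ranked by fold). With the name form as a term the difference of 10 h from 0 h in WT was −0.30 (adjusted p = 0.33).

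**Figure D2:**
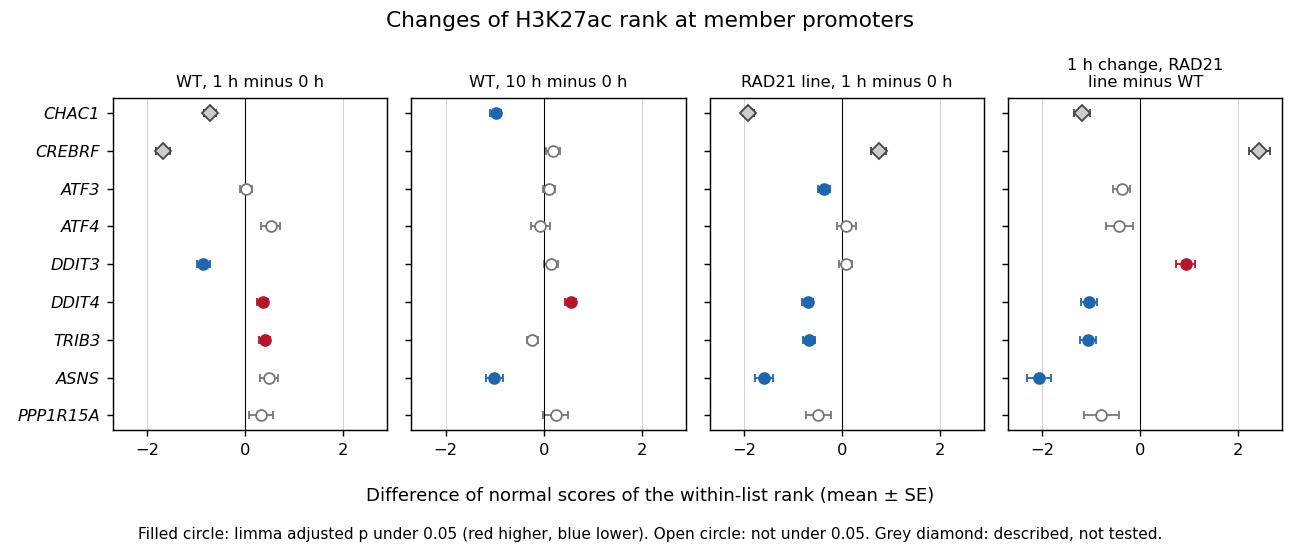
Difference of the normal scores of the H3K27ac rank (x axis, mean ± SE) at the 9 promoters, for WT at 1 h and at 10 h against 0 h, the RAD21 line at 1 h against 0 h, and the RAD21 line's change at 1 h less the WT change. Filled circles passed a limma adjusted p of 0.05, open circles did not, and grey diamonds were not tested. In the last panel ASNS lay at −2.07, TRIB3 at −1.07 and DDIT4 at −1.06, with DDIT3 at 0.93 and CREBRF at 2.43 on the other side.

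Counted over the members, 7 promoters were tested in each comparison and 9 in WT at 10 h against 0 h, where CHAC1 and CREBRF were included. In WT at 1 h, DDIT4 and TRIB3 rose and DDIT3 fell, 3 of 7, where 29.1% of all 18757 regions tested were called (14.3% higher, 14.8% lower). That count was 1 without WT 0 h replicate 1 or replicate 2, and 5 without WT 1 h replicate 1. In WT at 10 h against 0 h, DDIT4 rose and CHAC1 and ASNS fell, 3 of 9 beside 18.3% of all regions (9.70% higher, 8.56% lower). Of these, the CHAC1 call shares its 0 h lists with the choice of genes and is not independent of it. DDIT4 and ASNS are the calls of genes that the choice did not use. In WT from 1 h to 10 h, DDIT3 rose and ATF4, TRIB3 and ASNS fell, 4 of 7 beside 32.4% (15.8% higher, 16.5% lower).

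In the RAD21 line at 1 h, ATF3, DDIT4, TRIB3 and ASNS fell and none rose, 4 of 7 beside 27.7% of all regions (14.4% higher, 13.4% lower). Their median change over the 7 tested promoters was −0.48, against 0.04 over all regions. At 0 h, DDIT4, TRIB3 and ASNS were higher and DDIT3 was lower in the RAD21 line than in WT, 4 of 7 beside 37.5% (16.8% higher, 20.7% lower). The DDIT3 difference there was −0.58 ± 0.14 (adjusted p = 0.0048), and −0.46 without RAD21 0 h replicate 1 (adjusted p = 0.065). At 1 h only ASNS passed, and was lower, 1 of 7 beside 11.8% (5.68% higher, 6.16% lower). That count was 5 without WT 1 h replicate 1 and 2 without WT 1 h replicate 2. The change at 1 h differed between the lines for DDIT3, DDIT4, TRIB3 and ASNS, 4 of 7 beside 22.7% (11.7% higher, 11.0% lower). WT at 0 h and at 1 h enters several of these comparisons, so their counts are not independent of each other. Ranked by fold, 5 of the 23 calls were kept, namely CHAC1, DDIT4 and ASNS in WT at 10 h against 0 h and DDIT4 and TRIB3 between the lines at 0 h, all in comparisons of lists with different name forms. The CHAC1 call also shares its 0 h lists with the choice of genes. No other call of the 23 was kept under that ranking.

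For H3K4me1, which was measured in WT, no member promoter passed an adjusted p of 0.05, 0 of 9 at 1 h beside 0.595% of 60476 regions (0.291% higher, 0.304% lower) and 0 of 9 at 10 h beside 0.638% (0.615% higher, 0.0231% lower). At an unadjusted limma p under 0.05 there were 4 at 1 h and 3 at 10 h. These counts cannot be set against the shares above, which were taken at the adjusted threshold. CHAC1 stood at 67.8 and 70.5 at 0 h, at 88.5 and 88.7 at 1 h and at 75.6 and 85.8 at 10 h. Its H3K4me1 lists at 1 h were all above those at 0 h, while its H3K27ac lists were below. The H3K4me1 change of CHAC1 at 1 h was 0.76 ± 0.19 (adjusted p = 0.074).

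DDIT3 stood at 99.3 and 99.1 for H3K4me1 at 0 h, at 95.6 and 91.8 at 1 h and at 99.8 and 97.5 at 10 h. It was lower in both 1 h lists, as it was for H3K27ac, with a change of −0.93 ± 0.23 (adjusted p = 0.078). This is the only member that passed under another setting, at adjusted p = 0.034 without WT 10 h replicate 1 and 0.035 without WT 10 h replicate 2. CREBRF went from 58.5 and 65.4 at 0 h and 65.5 and 55.9 at 1 h to 80.6 and 77.6 at 10 h, without overlap between 10 h and the earlier times (change at 10 h of 0.64 ± 0.21, adjusted p = 0.33). TRIB3 stood at 99.7 and 99.6 at 0 h and between 98.4 and 98.8 later, with changes of −0.47 ± 0.14 at 1 h (adjusted p = 0.14) and −0.52 ± 0.14 at 10 h (adjusted p = 0.18). The region of TRIB3 spans 28097 bp and that of DDIT4 41102 bp, so these ranks describe whole domains. DDIT4 stayed between 97.3 and 98.6, and PPP1R15A between 98.98 and 99.28. The H3K4me1 region of PPP1R15A also covers the promoter of PLEKHA4, and that of DDIT3 the promoter of MBD6. ASNS ranged from 67.1 to 76.6, and each of its time points overlapped the others.

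ATF3 had an H3K4me1 region at an upstream start site, from 44037 to 39741 bp before the canonical start site. This region had the highest mean rank over the 6 lists, though not at 0 h, and was taken as its promoter region. It stood at 88.1 and 82.4 at 0 h, 92.3 and 94.7 at 1 h and 89.8 and 89.2 at 10 h (change at 1 h of 0.47 ± 0.17, adjusted p = 0.19). The H3K4me1 region over the canonical start site of ATF3 stood at 89.7 and 91.7 at 0 h and between 77.0 and 83.9 in the 4 later lists. The H3K4me1 region assigned to ATF4 ended 611 bp upstream of its start site, and stood at 69.0 and 64.8 at 0 h, 80.5 and 73.2 at 1 h and 69.0 and 73.1 at 10 h.

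**Figure D3:**
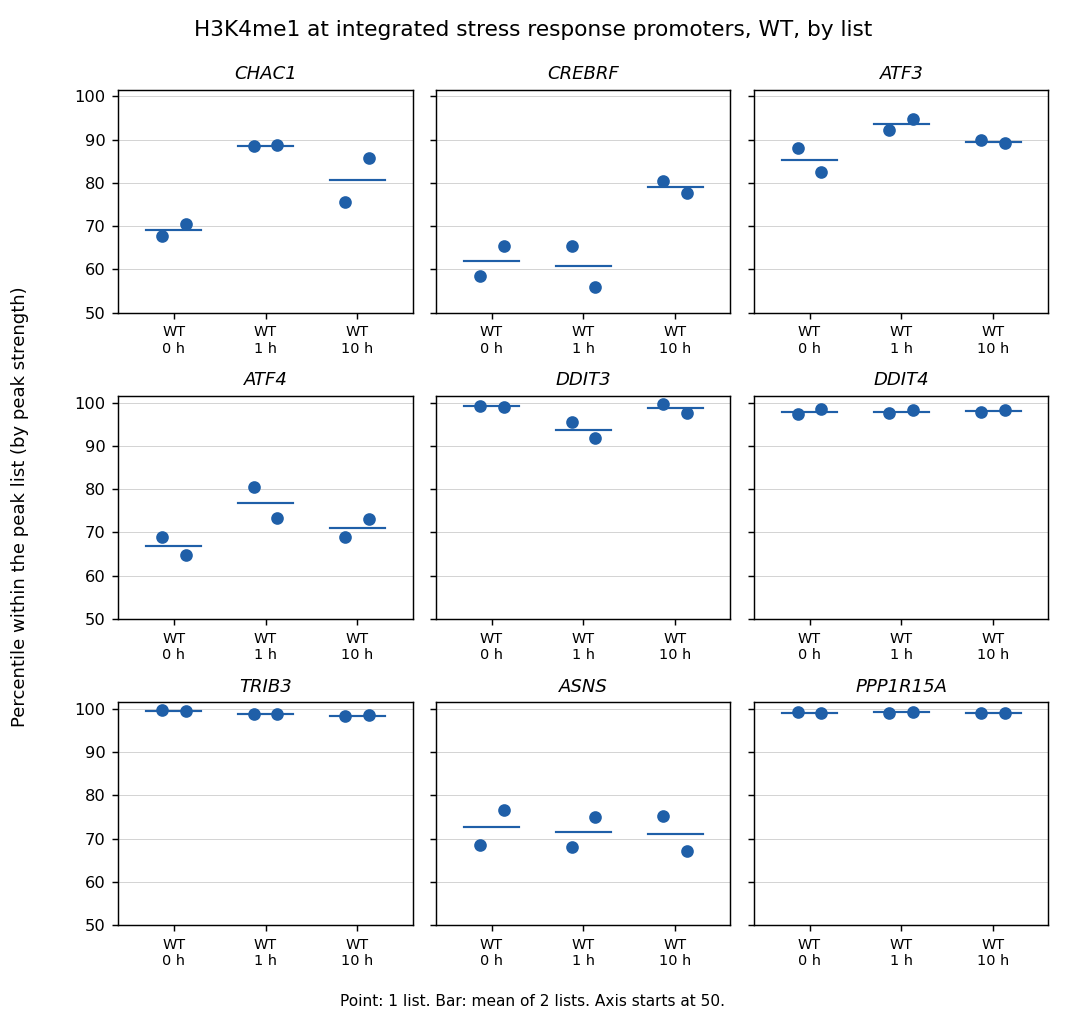
Percentile of the promoter region within each H3K4me1 peak list (y axis) for the 9 genes with a peak, in WT by hours of Nutlin-3a. Each point is 1 library. Both CHAC1 lists at 1 h (88.5 and 88.7) lie above both at 0 h, and both DDIT3 lists at 1 h (95.6 and 91.8) lie below.

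Within 25 kb of the start sites of the members there were 65 H3K27ac and 44 H3K4me1 regions. VLDLR had none of either mark. At the other genes the number of H3K27ac regions ran from 2 at CREBRF and ASNS to 12 at DDIT3. At 0 h, 25 regions were called in both WT H3K27ac lists, all of them also marked by H3K4me1. At 1 h there were 24, again all with H3K4me1, and at 10 h there were 35, of which 30 carried H3K4me1. No share of all H3K27ac regions with H3K4me1 is set beside these counts. Both WT 0 h lists and replicate 1 of WT 1 h are those named without input, so the times also differ in name form.

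At 10 h in WT, 9 regions were gained, meaning called in both 10 h lists and in neither 0 h list. They were 13.8% of the 65, beside 11.4% of all 87570 regions, and none was lost (1.90% of all regions). ATF4, DDIT3, DDIT4 and TRIB3 each had 2 of the gained regions and PPP1R15A had 1. Without WT 10 h replicate 1 the count was 15. The highest of them was the PPP1R15A region from 4948 to 2593 bp upstream, at the 63.6 and 66.5 percentiles of the 10 h lists, which also covers the promoter of PLEKHA4. At 1 h in the RAD21 line 7 regions were gained, 10.8% of the 65 beside 4.60% of all regions, and none was lost (2.87%). DDIT3 had 3 of them, and CHAC1, ATF4, DDIT4 and TRIB3 had 1 each, with none above the 34.4 percentile of a 1 h list. That count was 12 without RAD21 1 h replicate 1 and 13 without replicate 2. In WT at 1 h none was gained (1.51% of all regions) and 1 was lost (1.32%), a DDIT4 region from 25394 to 24833 bp upstream. Without WT 1 h replicate 1, 11 were gained. The WT 0 h lists behind these counts are those named without input, with the narrower peaks given above, and the part of peak width in the counts was not tested.

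**Figure D4:**
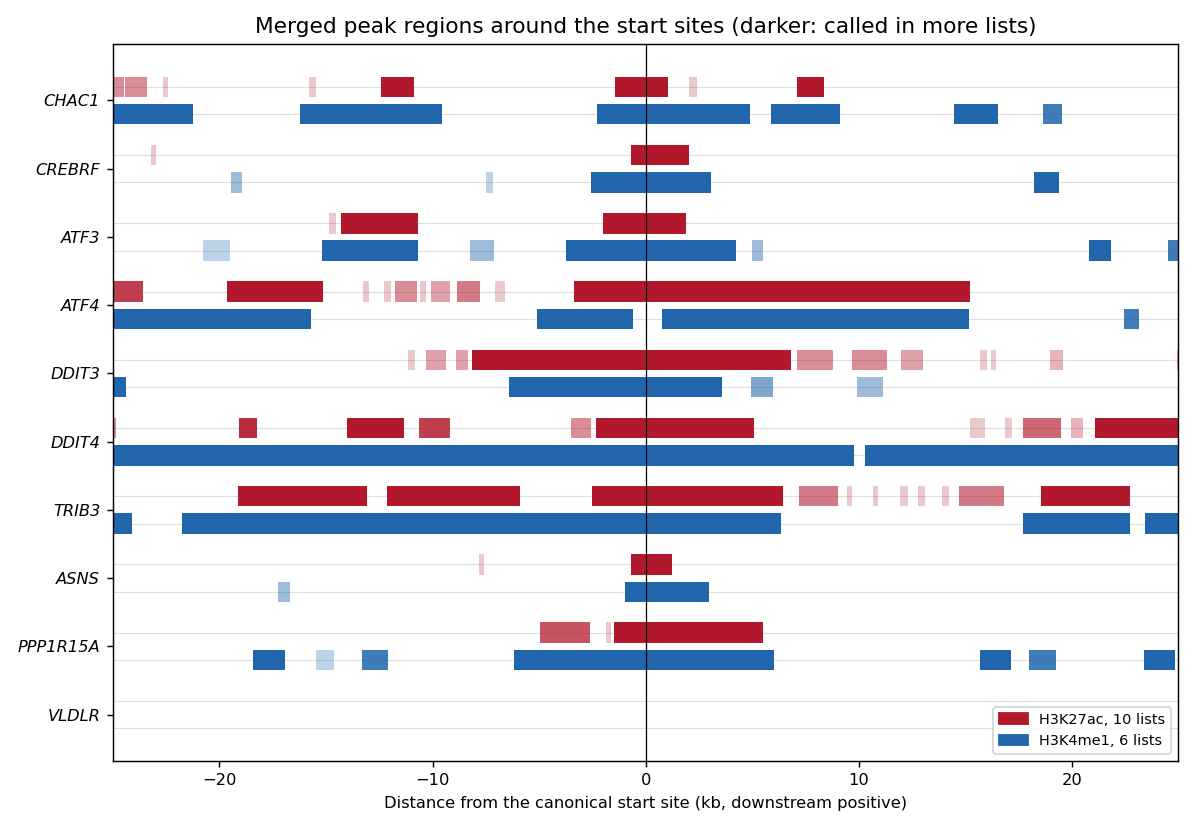
Merged H3K27ac (red, 10 lists) and H3K4me1 (blue, 6 lists) regions around the canonical start sites of the 10 genes, with distance from the start site in kb on the x axis and darker bars for regions called in more lists. TRIB3 and DDIT4 lie in long H3K4me1 domains of 28097 and 41102 bp, CREBRF and ASNS have a single H3K27ac region called in every list, and VLDLR has none.

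Of the regions near the genes and outside their promoters, 13 were called in every H3K27ac list and could be ranked. In WT at 1 h 4 of them rose and 1 fell, beside the 29.1% of all regions called there. At 10 h 2 rose, both of ATF3, beside 18.3%, and in the RAD21 line at 1 h 2 rose and 4 fell, beside 27.7%. The 2 that rose in the RAD21 line also cover promoters of other genes. These are MIEF1 and MIURF for the region near ATF4, and DCTN2 for the region near DDIT3. The region near ATF4 was also 1 of the 4 that rose in WT at 1 h. Both counts at 1 h include a region of CHAC1, a gene used to choose the set. It was the 1 that fell in WT and 1 of the 4 that fell in the RAD21 line. One of the ATF3 regions at 10 h, from 50587 to 45691 bp upstream, passed narrowly (0.35 ± 0.12, adjusted p = 0.0499). That call was lost with the name form as a term (0.17, adjusted p = 0.64) and without any of 8 single lists. The region of highest rank belonged to DDIT4 (chr10:74054740-74059609, from 21062 to 25931 bp downstream). It stood at 96.6 and 97.5 in WT at 0 h, at 99.93 and 99.95 at 1 h and at 99.3 and 98.4 at 10 h. The RAD21 line had it at 99.5 and 99.0 at 0 h and at 98.0 and 97.3 at 1 h. The DDIT4 region was thus at its top in WT at 1 h, and the RAD21 line moved the other way. The change at 1 h was 1.39 ± 0.16 in WT (adjusted p = 0.00016) and −0.48 ± 0.16 in the RAD21 line (adjusted p = 0.041), a difference of −1.88 ± 0.23 (adjusted p = 0.00016). The call in the RAD21 line was lost without any list of that line or of WT at 0 h, with values from −0.62 to −0.35, while the difference between the lines was called without each list. Ranked by fold none of these held, with 1.13 in WT at 1 h (adjusted p = 0.28), −0.34 in the RAD21 line (adjusted p = 0.84) and −1.47 for the difference (adjusted p = 0.43).

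An ATF3 region upstream of the gene (chr1:212767814-212771435, from 14289 to 10668 bp) rose over time in WT. It stood at 54.9 and 54.2 at 0 h, at 66.1 and 76.3 at 1 h and at 92.2 in both lists at 10 h, so that the 3 times did not overlap. The change was 0.56 ± 0.16 at 1 h (adjusted p = 0.017) and 1.45 ± 0.16 at 10 h (adjusted p = 0.00016). The call at 1 h was lost without either WT 0 h list (0.55 and 0.57) and ranked by fold (−0.079, adjusted p = 0.89), and the comparison of 10 h with 0 h sets lists of different name forms against each other. In the RAD21 line its change at 1 h was 0.44 ± 0.16 (adjusted p = 0.051), which differed from the WT change by −0.12 ± 0.22 (adjusted p = 0.73).

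Both TRIB3 regions upstream of the gene were higher in the RAD21 line than in WT at 0 h. The region from 19109 to 13078 bp upstream stood at 36.4 and 20.3 in WT at 0 h and at 70.6 and 70.1 in the RAD21 line (difference 1.59 ± 0.27, adjusted p = 0.00056, and 1.04 with the name form as a term, adjusted p = 0.064). The region from 12147 to 5916 bp upstream stood at 60.7 and 60.4 against 82.2 and 81.6 (difference 0.67 ± 0.16, adjusted p = 0.0053), and fell in the RAD21 line at 1 h by 0.80 ± 0.16 (adjusted p = 0.0026). Taking the name form as a term, the difference of this region at 0 h was 0.11 (adjusted p = 0.74). As a description, with no test, a CHAC1 region from 7098 to 8377 bp downstream was lower in WT at 1 h (change −1.33 ± 0.25). It stood at 49.4 and 46.2 at 0 h, at 17.0 and 28.4 at 1 h and at 57.7 and 58.5 at 10 h. Its score at 10 h differed from that at 0 h by −0.30 ± 0.25 (adjusted p = 0.41), a sign opposite to that of the percentiles. Of the 19 H3K4me1 regions near the genes and outside their promoters that could be ranked, limma called none at either time.

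VLDLR, a lipoprotein receptor whose expression ATF4 is known to raise, had no peak of either mark within 25 kb of a start site in any list. The nearest H3K27ac regions lay 360.2 kb upstream, called in all 10 lists, and 142.2 kb downstream, called in 1 list. The nearest H3K4me1 region, 38.0 kb upstream, was called in 2 lists. Its CARE core, printed above, therefore stood in a promoter without either mark in these lists. With no read counts, how much signal below the calling threshold VLDLR had is unknown.

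The other genes of the pathway followed a list of 81, of which 78 matched the annotation (10 by an older symbol), 76 had an H3K27ac promoter region and 74 could be tested. In WT at 1 h 9 rose and 19 fell, 37.8% beside the 29.1% of all regions. At 10 h 4 rose and 12 fell, 21.6% beside 18.3%, and in the RAD21 line at 1 h 8 rose and 20 fell, 37.8% beside 27.7%. Their median changes were −0.08, −0.05 and −0.15, against −0.01, −0.04 and 0.04 over all regions. Of 105 calls of genes that the naming rule selected, 14 held when peaks were ranked by fold and 84 with the name form as a term.

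**Figure D5:**
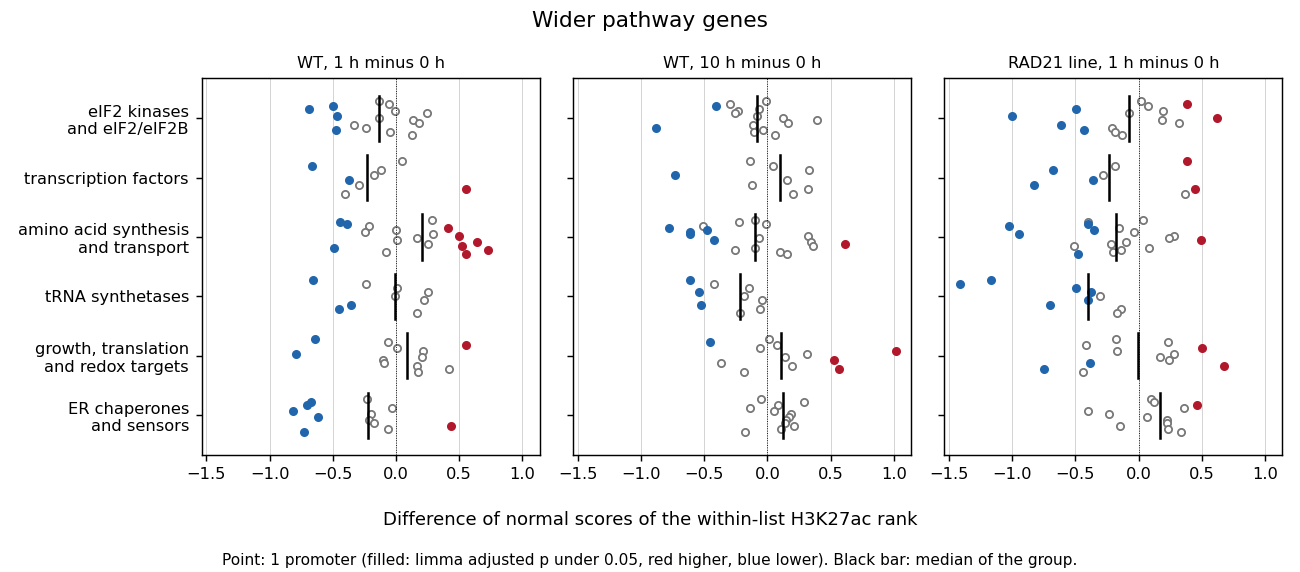
Difference of the normal scores of the H3K27ac rank (x axis) at promoters of the wider pathway, by functional group, for WT at 1 h and 10 h against 0 h and the RAD21 line at 1 h against 0 h. Each point is 1 promoter, filled where limma's adjusted p was under 0.05, and black bars are group medians. In the RAD21 line 6 of 9 tRNA synthetase promoters fell, led by CARS at −1.42 and AARS at −1.17.

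Of the genes of amino acid synthesis and transport, 6 of 18 rose and 3 fell in WT at 1 h, beside 14.3% of all regions higher and 14.8% lower. SLC7A1, a cationic amino acid transporter, rose by 0.73 ± 0.13 (adjusted p = 0.0017), and SLC7A5, a transporter of large neutral amino acids, rose by 0.55 ± 0.17 (adjusted p = 0.025). CTH, which makes cysteine, fell by 0.39 ± 0.11 (adjusted p = 0.019). The calls of SLC7A5 and CTH were lost without either WT 0 h list, and SLC7A5 was at 0.25 without WT 1 h replicate 2 (adjusted p = 0.12). At 10 h 1 of 18 rose and 5 fell, beside 9.70% higher and 8.56% lower, among them MTHFD2 of mitochondrial folate metabolism (−0.77 ± 0.15, adjusted p = 0.0046) and PSAT1 of serine synthesis (−0.61 ± 0.13, adjusted p = 0.0068). Both were lost without WT 0 h replicate 1 (−0.75 and −0.57) or WT 10 h replicate 2 (−0.72 and −0.52), and with the name form as a term (−0.57 with adjusted p = 0.093 and −0.41 with adjusted p = 0.21). In the RAD21 line at 1 h 1 rose and 5 fell, beside 14.4% and 13.4%. PSAT1 fell there by 0.95 ± 0.13 (adjusted p = 0.00017), and its change differed from that in WT by −1.24 ± 0.18 (adjusted p = 0.00043).

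The tRNA synthetases, which charge tRNAs with amino acids, fell in the RAD21 line at 1 h at 6 of 9 promoters, and none rose, beside 13.4% of all regions lower and 14.4% higher. CARS fell by 1.42 ± 0.15 (adjusted p = 4.4e-05) and AARS by 1.17 ± 0.15 (adjusted p = 0.00017). In WT at 1 h 3 of 9 fell, beside 14.8%, with AARS at −0.65 ± 0.15 (adjusted p = 0.0072), a call lost without WT 0 h replicate 2 (−0.53, adjusted p = 0.089) and reversed in sign when ranked by fold (0.27, adjusted p = 0.76). The change differed between the lines at 3 of 9, lower in the RAD21 line in each, beside 11.0% of all regions, as for CARS (−1.18 ± 0.21, adjusted p = 0.0018).

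ER chaperones and sensors fell at 5 of 12 promoters in WT at 1 h and rose at 1, beside 14.8% of all regions lower and 14.3% higher. From 1 h to 10 h they rose at 8 of 12 with none lower, beside 15.8% higher and 16.5% lower. HERPUD1, of ER-associated degradation, fell at 1 h by 0.81 ± 0.15 (adjusted p = 0.0018). DNAJB9, an ER co-chaperone, fell by 0.71 ± 0.12 (adjusted p = 0.0014) and was higher at 10 h than at 1 h by 0.79 ± 0.12 (adjusted p = 0.00053). DNAJB9 rose in the RAD21 line at 1 h by 0.46 ± 0.12 (adjusted p = 0.014, lost without 3 of the 4 lists of that line, with values from 0.40 to 0.50), a difference from WT of 1.17 ± 0.17 (adjusted p = 0.00057). PDIA4, a disulfide isomerase, was the ER gene that rose in WT at 1 h, by 0.44 ± 0.15 (adjusted p = 0.039), a call lost without any of 9 single lists.

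Of the eIF2 kinases and eIF2 and eIF2B subunits, 4 of 15 fell in WT at 1 h and none rose, 26.7% called, close to the 29.1% of all regions. EIF2AK3, the kinase PERK, fell by 0.69 ± 0.13 (adjusted p = 0.0020), and EIF2AK2, the kinase PKR, fell by 0.50 ± 0.11 (adjusted p = 0.0062, and 0.068 without WT 0 h replicate 2). Among the other transcription factors 1 of 8 rose and 2 fell in WT at 1 h, 37.5% beside the same 29.1%, and CEBPB, a partner of ATF4, fell in the RAD21 line by 0.68 ± 0.14 (adjusted p = 0.0037), a call lost without replicate 2 of either time (−0.57 and −0.54). CEBPB was also the only gene of the list called for H3K4me1, lower in WT at 1 h by 1.04 ± 0.15 (adjusted p = 0.0059), 1 of 75 beside the 0.595% of all regions, and that call was lost without any single list of 0 h or 1 h (adjusted p from 0.056 to 0.093). In the group of growth, translation and redox targets 3 of 12 rose and 1 fell in WT at 10 h, 33.3% beside 18.3%, with GDF15, a secreted stress cytokine and known p53 target, at 1.02 ± 0.12 (adjusted p = 0.00043).

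By a fixed rule, the promoters outside the list whose normal scores over the 10 H3K27ac lists were most like a member's were looked up among 10606 promoter regions. Those most like CREBRF were the region shared by AAMP and PNKD (Pearson r = 0.986), TSG101 (0.968) and UBA1 (0.965). Those most like CHAC1 were MLF1 (0.963), the region shared by CWC27 and SREK1IP1 (0.958) and ZNF780B (0.956). Among the members themselves, CHAC1 was most like ASNS (0.771), TRIB3 was most like ASNS (0.812), and CREBRF ran opposite to TRIB3 (−0.782). All of these describe 10 lists in 5 groups of 2 that share conditions and name forms.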

How the data were processed

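H3K27ac was measured in 10 and H3K4me1 in 6 libraries, grouped by the sample labels (line, mark and hours of Nutlin-3a, 2 replicates per group), and the 10 input libraries were not analysed here. According to the study's methods and the submitters' processing notes, the authors trimmed reads with Trim Galore 0.6.6, mapped them to GRCh37 with Bowtie2 2.3.2, removed low-quality, duplicate and blacklisted reads, and called peaks per library with MACS2 2.2.7.1, narrow for H3K27ac and broad for H3K4me1, with an input control. Each peak comes with the authors' fold, a ratio to local background, with the −log10 p-value of the peak, as the authors deposited it, and with its −log10 q-value, also deposited. Values of −log10 q went down to 1.30 in H3K27ac and 1.01 in H3K4me1 lists. Depth and background of a library move these values, so they ranked or filtered peaks within a list only.

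Per mark, overlapping or touching peaks were joined across lists into regions, and lists with a peak on 1 bp or more of a region counted as calling it. A region was gained if both lists of a condition called it and neither reference list did. Ranks by the −log10 p-value of the strongest peak were turned into normal scores over the 18757 H3K27ac and 60476 H3K4me1 regions that every list of the mark called, and fitted with limma 3.58.1 in R 4.3.3 (lmFit, contrasts.fit, eBayes with a trend, no covariates, 1 fit per mark). The threshold was 0.05 on p-values adjusted by Benjamini-Hochberg over all regions tested. Motifs were matched on GRCh37 with pysam 0.24.0. With 2 lists per group an exact two-sided permutation test cannot go below p = 0.333, so none was run. Simulated data planted changes of 1 in 200 regions, of which the test on 18757 H3K27ac regions found 82.5% to 88.0% in the 6 comparisons of groups and 58.5% in the difference of changes between lines, with 2.31% to 7.14% false calls. For H3K4me1, with 60476 regions, it found 49.0% at 1 h and 47.5% at 10 h, with 3.92% and 12.0% false calls. The simulation used independent noise, few changed regions and no difference of name form. These rates need not hold for the lists compared here.

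The members and all gene lists were chosen with earlier results of these data known. All 10 members are named whatever their values, with the promoter region of highest mean rank. From the wider pathway list, per functional group and comparison, the 2 genes with the smallest adjusted p in each direction could be named, and for likeness the 3 promoter regions with the highest correlation. Replicate numbers did not pair the samples, as deviations of same-numbered lists correlated between −0.050 and 0.045. Alternatives were ranking by fold, peaks of −log10 q of at least 5, peaks over at least 50% of a region, regions called in the compared groups, start sites of all transcripts, the name form as a term, a replicate block and leaving out each list. These were extended to the regions near members and to the pathway promoters after seeing the data.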

Additional observations from a re-analysis of the deposited data

Results flagged for a closer look

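For 4 of the 7 tested members the change at 1 h was called different between the RAD21 line and WT, beside 22.7% of all regions. For CREBRF the change ran in opposite directions. On the normal-score scale of H3K27ac ranks, the RAD21 line's change less the WT change was 0.93 for DDIT3, −1.06 for DDIT4, −1.07 for TRIB3 and −2.07 for ASNS, each by limma's test of the difference itself. For CREBRF it was 2.43, with both WT lists lower at 1 h and both RAD21 lists higher. The difference for CREBRF was not tested, since it led to the choice of these genes. That of CHAC1, −1.19, was not tested for the same reason, with both lines lower at 1 h. The first 5 use the WT 0 h lists, whose peak names lack input, and in WT at 1 h only replicate 1 shares that form. With the name form as a term they were 1.06, −0.98, −0.97, −2.42 and 2.29, in the same order of genes. Ranked by fold, none of the 4 tested differences was called, and that of DDIT3 was 0.22 (adjusted p = 0.89).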

How the results depend on the processing

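Of 23 member promoter results called by limma, 23 kept their direction and 23 their call with peaks of −log10 q of at least 5, with a replicate block and with start sites of all transcripts, so the block ended none of these calls, while it added ASNS in WT at 1 h (adjusted p = 0.045). With the name form as a term, or over regions called in the compared groups, 23 kept their direction and 19 their call. Ranked by fold, 21 kept their direction and 5 their call, and 2 reversed, ATF4 from 1 h to 10 h in WT (0.028) and DDIT3 between the lines at 0 h (0.76). With peaks over at least 50% of a region 6 had a value, and all 6 were called. Without 1 list in turn, 17 to 23 stayed called and all 23 kept their direction. The counts of called members (3 in WT at 1 h, 3 at 10 h, 4 from 1 h to 10 h, 4 in the RAD21 line, 4 for RAD21 against WT at 0 h, 1 at 1 h and 4 in the difference of changes) were each 1 with peaks over 50% of a region, where fewer regions could be tested. Ranked by fold they were 0 in WT at 1 h, from 1 h to 10 h, in the RAD21 line, between the lines at 1 h and in the difference of changes, and 2 for the lines compared at 0 h. With the name form as a term they were 1 at 10 h and 5 for RAD21 against WT at 1 h, and over regions called in the compared groups 1 in WT at 1 h and 0 for RAD21 against WT at 1 h. Leaving out 1 list gave 1 to 5 in WT at 1 h, 1 to 5 for RAD21 against WT at 1 h, 2 to 3 in WT at 10 h, 3 to 5 in the RAD21 line and 3 to 5 for RAD21 against WT at 0 h. For H3K4me1 at 1 h the count of 0 became 1 (DDIT3) over regions of the compared groups, with the replicate block (adjusted p = 0.037), and without either WT 10 h list. For regions near members, peaks of −log10 q of at least 5 gave 2 lost in WT at 1 h, 3 gained and 1 lost at 10 h and 3 gained in the RAD21 line. Peaks over 50% of a region gave 17 gained and 1 lost at 10 h, and start sites of all transcripts 1 lost at 10 h. Leaving out 1 list gave 0 to 11 gained and 1 to 2 lost in WT at 1 h, 9 to 15 gained and 0 to 1 lost at 10 h, and 8 to 13 gained and 0 to 3 lost in the RAD21 line. Of 105 calls of pathway promoters, 14 were kept ranked by fold, 84 with the name form as a term, 72 over regions called in the compared groups and all but 4 with the replicate block, which ended those of PDIA4 (adjusted p = 0.0501), SESN2, NFE2L2 and MANF. Of 26 calls of regions near members, 4, 18, 18 and 23 were kept, the block ending 1 each of CHAC1, ATF3 and ATF4. The calls of the CHAC1 region among them all involve 1 h lists, which the choice of genes used. Among these regions and promoters, those that reversed were, ranked by fold, the ATF3 region 14289 bp upstream at 1 h (−0.079), AARS in WT at 1 h (0.27), EIF4EBP1 from 1 h to 10 h (0.050), ERO1L (0.056) and MANF (0.034) for RAD21 against WT at 0 h, and, with the name form as a term, YARS at 0 h (−0.065). The cause was not tested in any of these cases. Peak lists without read counts limit all of this to ranks of called peaks, with 2 lists per group.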

Other observations

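The growth, translation and redox targets outside the member list differed between the lines before Nutlin-3a. At 0 h 6 of 12 were higher and 4 lower in the RAD21 line than in WT, beside 37.5% of all regions (16.8% higher, 20.7% lower). The lists of the RAD21 line and of WT at 0 h have different name forms, so line and form cannot be told apart. STC2, a secreted glycoprotein of the stress response, was higher by 1.33 ± 0.17 (limma adjusted p = 6.4e-05), and EIF4EBP1, a repressor of translation initiation, by 0.95 ± 0.15 (adjusted p = 0.00028). KLHL24 was lower by 0.58 ± 0.11 (adjusted p = 0.0014). ER chaperones and sensors were lower at 7 of 12 promoters and higher at none, beside 20.7% of all regions lower and 16.8% higher. Among the 7 were SEL1L of ER-associated degradation (−1.05 ± 0.15, adjusted p = 0.00017) and MANF, an ER stress-inducible secreted factor (−0.78 ± 0.11, adjusted p = 0.00019). At 1 h MAP1LC3B, of the autophagosome, was higher in the RAD21 line than in WT by 1.01 ± 0.15 (adjusted p = 0.0016) and SQSTM1, an autophagy receptor, by 0.77 ± 0.16 (adjusted p = 0.011). Both calls at 1 h were lost when ranked by fold (1.55 and 1.62, adjusted p = 0.13 and 0.19) and over regions called in the compared groups (0.98 and 0.73), and that of SQSTM1 also without either RAD21 1 h list (0.79 and 0.74). Ranked by fold, KLHL24 was at −0.058 (adjusted p = 0.83) and MANF at 0.034 (adjusted p = 0.94) between the lines at 0 h.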
